A study of Homo sapiens with 2 samples.

Results

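Small nucleolar RNA host genes are transcripts whose introns carry small nucleolar RNAs (snoRNAs), and 30 of them and their relatives were described here among 39720 gene symbols. The members were the 24 symbols made of SNHG and a number, together with 6 named long noncoding RNAs: GAS5, ZFAS1, DANCR, CYTOR, MIR17HG and TUG1. They were measured by RNA sequencing in A549 cells, an established human lung adenocarcinoma line, infected with lentivirus for a short hairpin against DEPDC1B (shDEPDC1B) or for a control hairpin (shNC). Both groups received 5 µg/mL polybrene and were harvested on day 2. With 1 library in each group there were no replicates and no test was run, so each difference is one between these 2 libraries and not between conditions. In bulk RNA, fewer cells with a transcript and less of it per cell cannot be told apart.

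A snoRNA host gene is transcribed as a long precursor whose introns are processed into snoRNAs. Most snoRNAs guide the methylation or pseudouridylation of ribosomal RNA. The spliced exons are then exported as a noncoding RNA that often carries short open reading frames, and many such RNAs are removed by nonsense-mediated decay when they meet the ribosome. Many hosts, like the ribosomal protein genes, begin their transcripts with a terminal oligopyrimidine (TOP) tract, a C followed by a run of C and T. Among the members, 25 held at least 1 snoRNA row of the table within their annotated bounds. CYTOR and TUG1 are not known as snoRNA hosts, and MIR17HG carries the miR-17-92 microRNA cluster instead.

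Most members were somewhat higher in shDEPDC1B, with DANCR far above the rest, and a few were lower. In 24 members the higher library held at least 30 counts (assessed members), and of these 17 had a ratio above 1 and 7 below. Ratios were above 1 in 7188 of all 13850 genes that reached 30 counts. Among the 470 annotated long noncoding genes of these, 279 had a ratio above 1. At least 1.5-fold higher, with an exact 95% counting interval that excludes equality, were 4: DANCR, SNHG16, SNHG10 and SNHG19. By the same rule 3 were lower: SNHG4, SNHG14 and TUG1. Over all 13850 genes that reached 30 counts, 19.2% were higher and 19.6% lower by this rule, and over the 470 annotated long noncoding genes among them 25.5% were higher and 15.7% lower. The shares among the members, 16.7% and 12.5%, were therefore near or below these backgrounds. With libraries scaled by their totals, 14.6% of all genes were higher and 23.2% lower, while the members gave 4 and 4. The median log2 ratio was 0.40 over the members, 0.17 over the long noncoding genes and 0.04 over all genes that reached 30 counts. After a linear fit on transcript length and GC content the members' median was 0.02 and that of all genes 0.08, so the higher median of the members was not seen after that fit. Higher and lower refer to shDEPDC1B, values in square brackets are exact 95% counting intervals, and values without a unit beside a gene are log2 ratios of scaled counts.

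**Figure D1:**
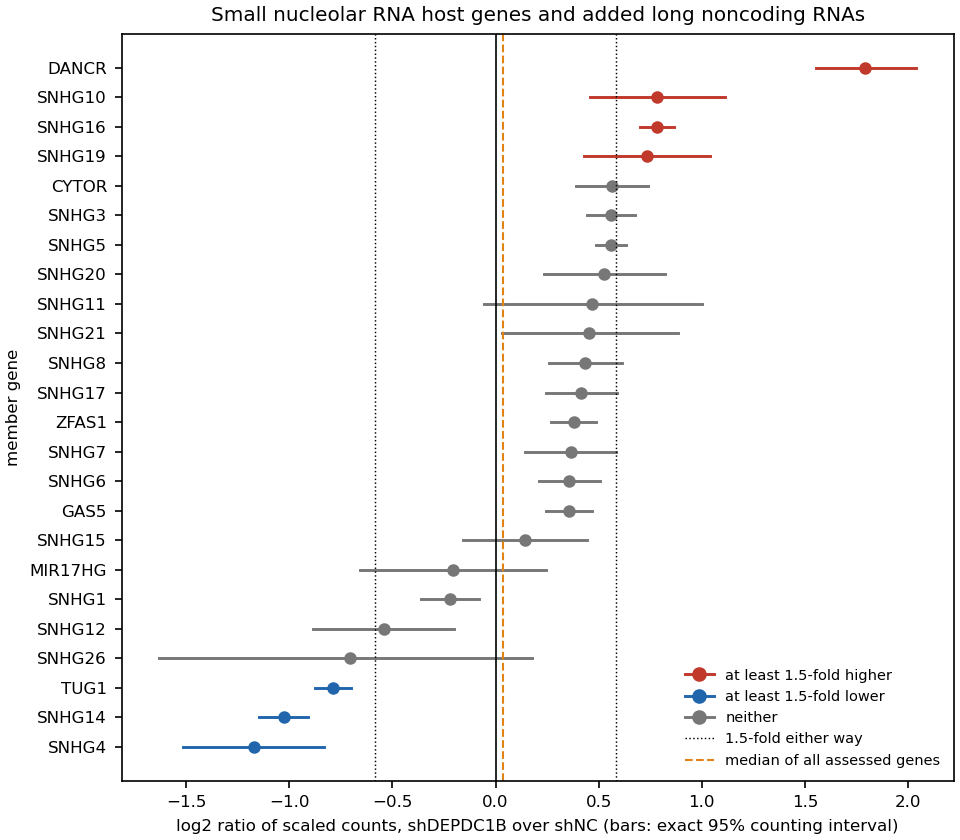
Log2 ratio of scaled counts (x axis, shDEPDC1B over shNC) for the 24 members with at least 30 counts (y axis), with bars for the exact 95% counting interval, dotted lines at 1.5-fold and a dashed line at the median of all assessed genes. DANCR stands at 1.79, 17 members lie above 0, and SNHG4, SNHG14 and TUG1 lie lowest.

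The start of a host transcript is where its TOP tract would lie, so RefSeq start sites (GRCh38.p14) are shown for the 10 members with at least 100 counts whose interval bounds lay farthest from equality, 5 on each side. Each line holds 60 bases, of which 20 precede the start, and capitals mark a tract of at least 5 pyrimidines that opens with a C within 5 bases of the start. The first 5 genes had ratios above 1 and the next 5 below. The RefSeq start of SNHG14 lies upstream of its GENCODE start, beside that of SNRPN.
DANCR (chr4:52712374-52712433, plus strand): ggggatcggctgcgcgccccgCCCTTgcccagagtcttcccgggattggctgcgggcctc
SNHG16 (chr17:76557744-76557803, plus strand): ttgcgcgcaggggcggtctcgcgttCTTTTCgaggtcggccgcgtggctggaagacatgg
SNHG5 (chr6:85678694-85678753, minus strand): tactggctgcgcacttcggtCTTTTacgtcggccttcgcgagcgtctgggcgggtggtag
SNHG10 (chr14:95534833-95534892, minus strand): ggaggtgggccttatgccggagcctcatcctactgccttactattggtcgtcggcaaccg
SNHG3 (chr1:28505923-28505982, plus strand): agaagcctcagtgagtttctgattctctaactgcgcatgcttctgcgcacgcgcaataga
SNHG4 (chr5:139274081-139274140, plus strand): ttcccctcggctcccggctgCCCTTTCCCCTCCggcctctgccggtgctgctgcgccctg
SNHG12 (chr1:28581834-28581893, minus strand): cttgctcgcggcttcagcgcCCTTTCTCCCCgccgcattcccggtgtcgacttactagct
SNHG14 (chr15:24823588-24823647, plus strand): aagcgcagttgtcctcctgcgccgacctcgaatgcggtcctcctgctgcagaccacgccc
TUG1 (chr22:30969245-30969304, plus strand): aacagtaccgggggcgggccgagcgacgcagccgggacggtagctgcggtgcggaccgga
SNHG1 (chr11:62855846-62855905, minus strand): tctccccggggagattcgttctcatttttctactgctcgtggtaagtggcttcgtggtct

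A tract was found at 11 of the 22 assessed members whose start is in the RefSeq table (50.0%), at 25 of 44 protein-coding snoRNA hosts (56.8%) and at 21.1% of all 35116 starts of that table. The tract was read only on the transcribed strand, in the direction of transcription. The median log2 ratio was 0.42 for the 11 members with a tract at the RefSeq start and 0.46 for the 11 without one there. Of those without, SNHG1, SNHG3, SNHG11, SNHG14, SNHG20, GAS5, CYTOR and TUG1 had a tract at some GENCODE transcript start. SNHG10, SNHG21 and SNHG26 had none, and SNHG7 had its tract at the RefSeq start only. Any GENCODE start gave a tract in 79.2% of assessed members and 49.6% of assessed genes. These medians therefore do not compare genes with and without a TOP tract. The lower genes SNHG4 and SNHG12 had the longest tracts shown, with 13 and 11 pyrimidines. When the tract had to have at least 7 pyrimidines, 9.09% of the assessed members had it, against 47.7% of the protein-coding hosts and 7.61% of all starts. The assessed members with it were SNHG4 and SNHG12 alone. The median of these 2 genes was -0.86, against 0.45 for the other assessed members in the table. SNHG18, which had 0 counts in both libraries, also had such a tract, of 21 pyrimidines. A match is a description of these letters and not evidence of a functional site.

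DANCR (chromosome 4, 52712404 to 52720351, plus strand, GRCh38 coordinates of GENCODE 29), known for holding back the differentiation of progenitor cells, was the member that differed most. Its counts were 184 (shNC) and 603 (shDEPDC1B), which is 9.54 and 33.1 CPM, the usual unit of counts scaled for library depth. The log2 ratio was 1.79 [1.55, 2.04], a 3.46-fold higher level, and only 120 of the 13850 genes had a higher ratio. Its annotated span overlaps no other gene with 30 counts. After the fit on length and GC it stood at 1.22, and after a loess on length at 1.25.

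SNHG16 (chromosome 17, 76557766 to 76565348, plus strand), the host of SNORD1A, SNORD1B and SNORD1C, had 1949 and 3171 counts, or 101 and 174 CPM. Its log2 ratio of 0.78 [0.70, 0.86] was 1.72-fold and was the most precisely measured among the 4 higher members. It stood at 0.96 after the fit on length and GC and at 0.83 after the loess on length. SNHG10 (chromosome 14, 95532297 to 95534872, minus strand), the host of SCARNA13, had 129 and 210 counts and a log2 ratio of 0.78 [0.46, 1.11]. SNHG19 (chromosome 16, 2154797 to 2155358, minus strand), the host of SNORD60, had 148 and 233 counts and a log2 ratio of 0.73 [0.43, 1.04]. Neither SNHG10 nor SNHG19 met the rule after correction for length: SNHG10 came to 0.52 and 0.37, and SNHG19, whose longest transcript has 342 nucleotides, to -0.29 with length and GC fitted and 0.16 with the loess.

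A second set of members was higher by less than 1.5-fold, with intervals above equality. SNHG5 (chromosome 6), the host of SNORD50A and SNORD50B, had 2601 and 3624 counts, a log2 ratio of 0.56 [0.49, 0.63]. SNHG3 (chromosome 1), the host of SNORA73A and SNORA73B, had 1034 and 1444 counts and a log2 ratio of 0.56 [0.45, 0.68]. These 2 and CYTOR lay just below the 1.5-fold line, and SNHG19 was the called higher member nearest above it. After the fit on length and GC SNHG5 came to 0.17 and SNHG3 to 0.57, and after the loess on length to 0.05 and 0.40. SNHG20, the host of SCARNA16, was at 0.53 [0.23, 0.82] with 168 and 229 counts.

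GAS5 (chromosome 1, 173863900 to 173868882, minus strand), a growth-arrest transcript that accumulates when translation is inhibited and is known as a decoy of the glucocorticoid receptor, had 1234 and 1495 counts. Its log2 ratio was 0.36 [0.25, 0.47]. ZFAS1 (chromosome 20, 49278178 to 49295738, plus strand), the antisense neighbour of ZNFX1 and host of the SNORD12 family, had 1238 and 1523 counts and a log2 ratio of 0.38 [0.27, 0.49]. The intervals of these abundant hosts overlap. After the fit on length and GC GAS5 came to 0.27 and ZFAS1 turned to -0.16, and after the loess on length they stood at -0.03 and -0.13. SNHG6, SNHG7, SNHG8, SNHG17 and SNHG21 were between 0.36 and 0.46, each with an interval above equality, and SNHG11 (55 and 72 counts) and SNHG15 (181 and 189 counts) had intervals that include it. Several of these directions turned with length corrected: SNHG6 (-0.12), SNHG7 (-0.05) and SNHG8 (-0.17) after the fit on length and GC, and SNHG6 (-0.23), SNHG8 (-0.15) and SNHG21 (-0.11) after the loess.

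CYTOR (chromosome 2, 87454781 to 87636740, plus strand), a cytoplasmic RNA named for its link to cytoskeleton genes, had 473 and 662 counts and a log2 ratio of 0.56 [0.39, 0.74]. It has a near copy on the same chromosome, MIR4435-2HG, which had 522 and 542 counts and stood at 0.13 [-0.04, 0.31]. Reads that match both are divided between them by the authors' model, so neither value stands alone, and the 2 genes summed gave 0.35 [0.23, 0.48]. The longest annotated CYTOR transcript has 7512 nucleotides, and which transcript these cells make was not examined. Against the general trend for that length CYTOR lay high, at 1.11 after the fit on length and GC and at 1.09 after the loess. It met the 1.5-fold rule there, so that call rests on the annotated length. The sum of the 2 genes was not corrected for length.

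The lowest member was SNHG4 (chromosome 5, 139274102 to 139284899, plus strand), the host of SNORA74A and SNORA74D, with 245 and 103 counts. Its log2 ratio was -1.17 [-1.52, -0.83], a 2.25-fold lower level, and it remained at -1.13 and -1.38 after the 2 corrections for length. SNHG4 overlaps MATR3 on the same strand, which had 7814 and 5317 counts and a log2 ratio of -0.48 [-0.53, -0.43], and SIL1 on the opposite strand, at 1.06 [0.93, 1.18]. Because MATR3 had many more counts and whether strand was kept is not given, a share of SNHG4 counts could belong to these neighbours, which was not tested.

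TUG1 (chromosome 22, 30969245 to 30979395, plus strand), an abundant and largely nuclear RNA first described in the retina, had 3144 and 1723 counts, or 163 and 94.4 CPM. Its log2 ratio was -0.79 [-0.87, -0.70], a 1.73-fold lower level. It was the member with the most counts in shNC, and SNHG5 was in shDEPDC1B. After correction for its transcript length of 7469 nucleotides TUG1 stood at -0.27 and -0.26 and no longer met the rule.

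SNHG12, which carries SNORD99 and SNORA44 among others, was the nearest of the remaining lower members, with 186 and 121 counts and a log2 ratio of -0.54 [-0.88, -0.20]. It met the 1.5-fold rule under 2 other scalings, and stood at -0.84 after the fit on length and GC and at -0.85 after the loess. SNHG1 (chromosome 11, 62851988 to 62855914, minus strand), the host of SNORD25 to SNORD31, had 932 and 756 counts and was at -0.22 [-0.36, -0.08]. SNHG26 had 31 and 18 counts, and its interval [-1.63, 0.18] includes equality.

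SNHG14 (chromosome 15, 24978583 to 25419462, plus strand) is the very long transcript of the imprinted Prader-Willi region, which runs through the SNORD116 and SNORD115 clusters and on to become the antisense of UBE3A. The row held 1803 and 837 counts and had a log2 ratio of -1.03 [-1.15, -0.91], a 2.04-fold lower level. After correction for its longest transcript of 13074 nucleotides it stood at -0.31 and -0.27, and no longer met the rule.

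The rows of this region did not move together. SNRPN, the splicing protein gene at the start of the region, had 943 and 1430 counts and was at 0.68 [0.56, 0.80], and SNURF, which shares its transcript and its reads, at 0.62 [0.50, 0.75]. The noncoding rows that follow were lower: PWARSN had 35 and 7 counts (-2.24 [-3.66, -1.05]), PWAR5 had 250 and 20 counts (-3.56 [-4.30, -2.91]) and PWAR6 had 193 and 90 counts (-1.02 [-1.40, -0.65]). IPW, which lies beyond the SNORD116 cluster, was again higher, with 351 and 560 counts and 0.75 [0.56, 0.95]. UBE3A, a ubiquitin ligase gene on the other strand, had 1425 and 939 counts and was at -0.52 [-0.64, -0.40]. All of these overlap SNHG14 in RefSeq, so their reads are assigned among overlapping transcripts. How much this assignment contributes to the contrast between neighbouring rows was not tested.

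**Figure D2:**
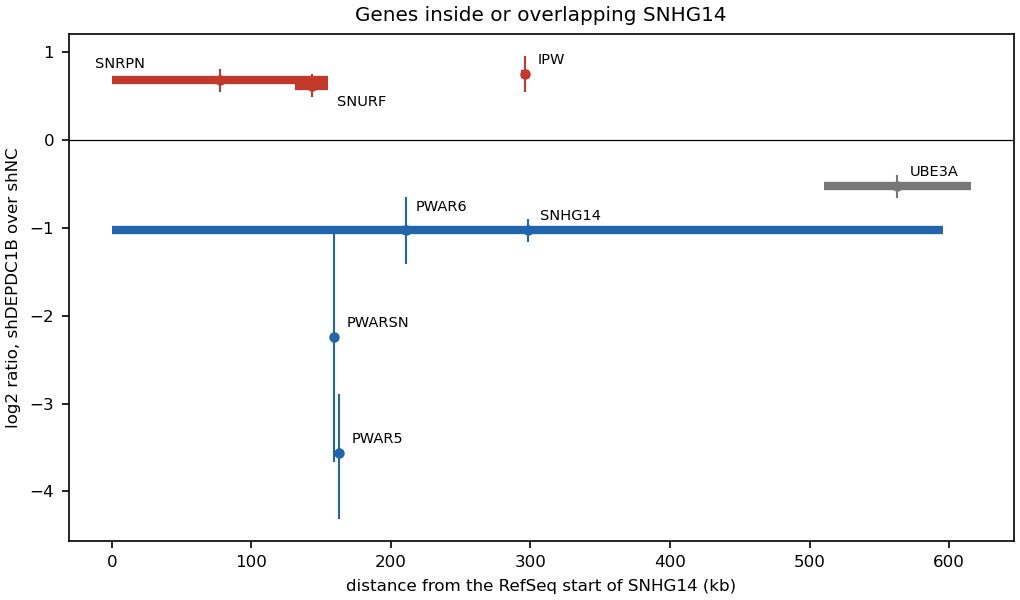
Log2 ratio (y axis, shDEPDC1B over shNC) of each row with at least 30 counts in or across the RefSeq bounds of SNHG14, drawn over its extent in kb from the start of SNHG14 (x axis). Vertical lines are exact 95% counting intervals, red and blue mark at least 1.5-fold higher and lower, and PWAR5 at -3.56 lies farthest from SNRPN at 0.68.

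The rows of the snoRNAs themselves hold few counts. A mature snoRNA is shorter than most library inserts, so whether these rows measure mature snoRNAs is not known. The 140 snoRNA rows within members held 293 and 168 counts, a log2 ratio of the sums of -0.72 [-1.005, -0.44]. This sum was lower, while 17 of the 24 assessed members had ratios above 1, as had 7188 of all 13850 assessed genes. All 428 snoRNA rows outside members held 4367 and 5537 counts, a log2 ratio of 0.42 [0.36, 0.48]. Without the 4 most abundant of these, the 424 snoRNA rows outside members with at most 100 counts in either library, a limit chosen after the values were seen, held 866 and 773 counts, a log2 ratio of -0.08 [-0.23, 0.06].

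GAS5 gave the clearest case. Its 11 snoRNA rows summed to 115 and 65 counts, a log2 ratio of -0.74 [-1.21, -0.29], while the GAS5 row stood at 0.36. Of these rows 9 had fewer counts in shDEPDC1B, among them SNORD80 (35 and 21), SNORD47 (27 and 18) and SNORD76 (20 and 2). The 8 rows within SNHG1 had 51 and 22 counts, -1.13 [-1.93, -0.39], with SNORD22 at 25 and 14. Within SNHG14 the 83 rows had 38 and 2 counts, -4.17 [-7.27, -2.22], most of them in SNORD116 rows (32 and 2 after rounding each row, 31.2 and 3.84 as unrounded estimates, a smaller contrast), and the 48 SNORD115 rows had none. Without the rows of GAS5 and SNHG14 the members' sum was 140 and 101 counts, -0.39 [-0.77, -0.01]. The cause of the difference between host and snoRNA rows was not tested.

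**Figure D3:**
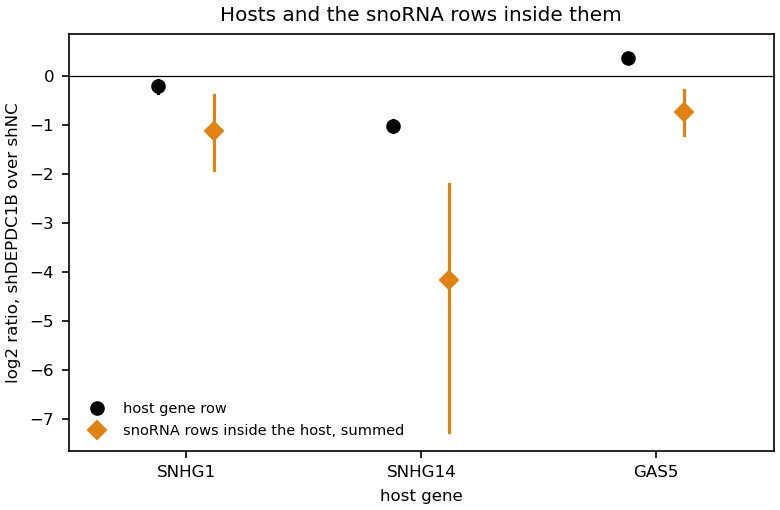
Log2 ratio (y axis, shDEPDC1B over shNC) of the host gene row (black circles) and of the snoRNA rows inside it, summed (orange diamonds), for the 3 hosts (x axis) whose snoRNA rows sum to at least 30 counts in 1 library, with exact 95% counting intervals. In SNHG1, SNHG14 and GAS5 the snoRNA sum lies below its host.

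Levels per transcript length, given as CPM per kilobase of the longest annotated transcript, were led by short hosts. SNHG5 was at 131 in shNC and 192 in shDEPDC1B, ZFAS1 at 59.7 and 77.7, SNHG6 at 55.6 and 71.3, and GAS5 at 37.7 and 48.3. These were ranks 1 to 4 of 24 in shNC, and GAS5 and SNHG8 changed places in shDEPDC1B. DANCR moved from rank 12 (10.6) to rank 8 (36.6), SNHG4 from rank 16 to rank 21 and TUG1 from rank 8 (21.8) to rank 12 (12.6). The members together took 0.0961% of the counts in shNC and 0.104% in shDEPDC1B.

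**Figure D4:**
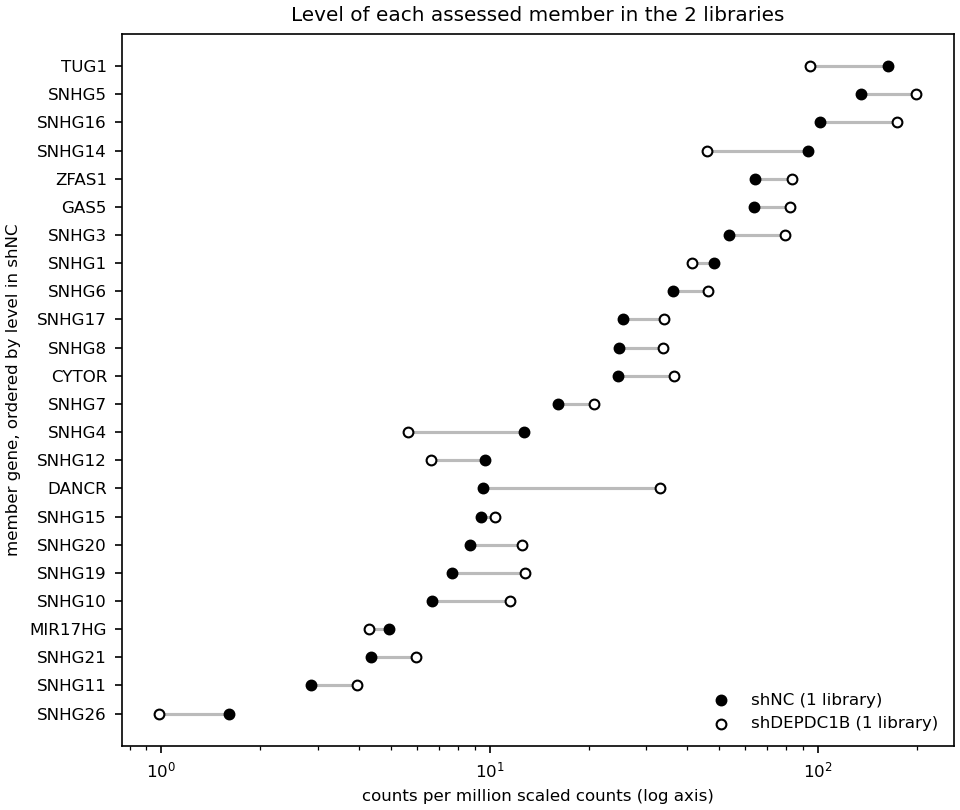
Level of each of the 24 assessed members (y axis, ordered by shNC) in CPM on a log axis (x axis), with filled circles for the shNC library and open circles for the shDEPDC1B library. The gap is widest for DANCR (9.54 and 33.1), and TUG1, SNHG14 and SNHG1 are the members above 40 CPM in shNC whose open circle lies to the left.

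Ratios went with transcript length across all genes, and members tended to be short. Length was that of the longest annotated transcript, or of the longest protein-coding transcript where a gene has one. The median ratio ran from 0.56 in the shortest 10% of genes (74 to 1432 nucleotides) to -0.63 in the longest 10%. The members' median length was 2247.5 nucleotides, against 3402.5 over all genes, and 8 of the 24 fell in the shortest 10%. Of those 8, SNHG6, SNHG8, SNHG21 and ZFAS1 lay between 0.36 and 0.46, below the median of genes of that length, and DANCR lay far above it. Across the 24 members the Spearman correlation of log2 ratio with length was -0.26, against -0.51 across 13020 genes, given as descriptions across genes of the same 2 libraries. After either correction 3 of the 24 members met the rule for higher (DANCR, SNHG16 and CYTOR) and 3 for lower (SNHG4, SNHG12 and SNHG26). Over all assessed genes 14.9% were higher and 12.2% lower after the fit on length and GC, and 14.6% and 13.4% after the loess. Of the 7 uncorrected calls, DANCR, SNHG16 and SNHG4 were the ones kept by both corrections.

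**Figure D5:**
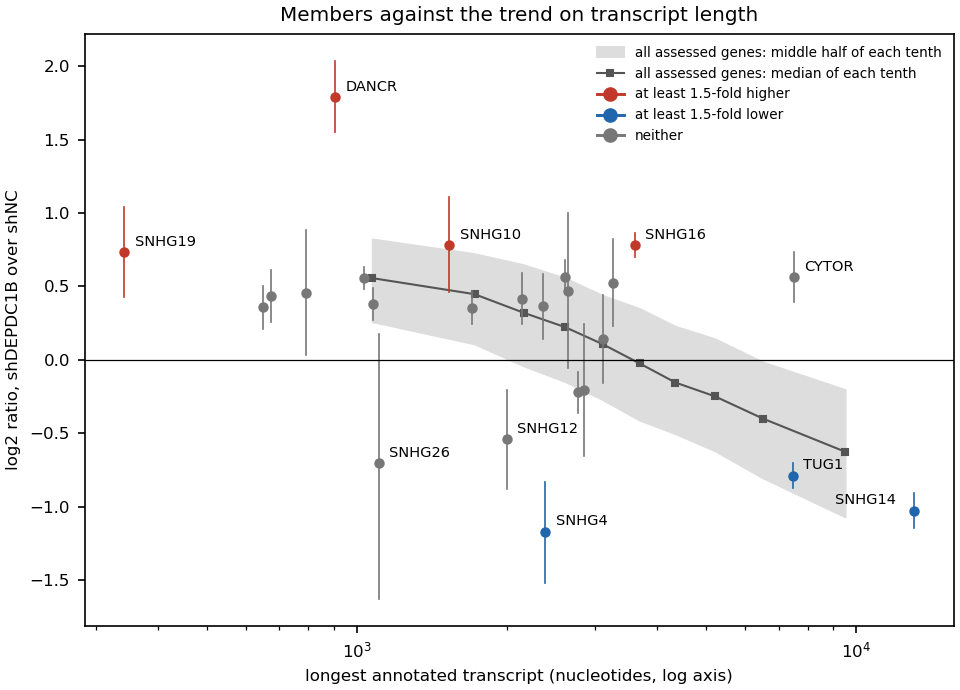
Log2 ratio (y axis, shDEPDC1B over shNC) against transcript length (x axis, log scale) for the 24 members, with exact 95% counting intervals. Grey shows the median and interquartile range of all assessed genes in 10 bins of length. Length is that of the longest annotated transcript, taken among coding transcripts where a gene has any. DANCR, SNHG16, CYTOR, SNHG10, SNHG20 and, narrowly, SNHG3 lie above the interquartile range of their bin, SNHG4, SNHG12, SNHG26, SNHG1 and MIR17HG below it, and TUG1 within it.

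Several members start next to a gene on the opposite strand, within 2000 bases. SNHG10 and GLRX5, which encodes a mitochondrial iron-sulfur protein, were both at 0.78. The spans of SNHG10 and GLRX5 overlap, so reads could be shared if strand was not kept, which was not tested. SNHG19 was at 0.73 beside TRAF7 at 0.73 [0.63, 0.82]. SNHG9, a member under 30 counts (7 and 26), starts 99 bases from the ribosomal protein gene RPS2, at 0.72 [0.70, 0.75]. Other pairs went apart: GAS5 was at 0.36 and ZBTB37 at -0.996 [-1.23, -0.76], ZFAS1 at 0.38 and ZNFX1 at -0.29 [-0.38, -0.20], and SNHG1 at -0.22 and SLC3A2, an amino acid transporter chain, at 0.27 [0.23, 0.31]. TUG1 at -0.79 starts near MORC2 at -0.09 [-0.24, 0.05]. Of the 24 members, 11 overlap another gene with 30 counts, and for these reads could be shared.

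MIR17HG (chromosome 13, 91347820 to 91354579, plus strand), whose transcript is cut into the miR-17-92 microRNAs that promote cell cycle entry and survival, had 95 and 78 counts. These counts could not show a difference (-0.20 [-0.66, 0.24]), and the rows of its 6 hairpins had 0 counts in both libraries. The cluster holds 4 seed families, shown by the mature RefSeq sequence of 1 member each with the seed (bases 2 to 8) in capitals. The first seed is shared with miR-20a-5p and the third with miR-19a-3p.
miR-17-5p: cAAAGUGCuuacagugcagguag
miR-18a-5p: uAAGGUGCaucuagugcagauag
miR-19b-3p: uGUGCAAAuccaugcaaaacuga
miR-92a-3p: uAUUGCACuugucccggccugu
Among 12 assessed genes listed as reported targets of these microRNAs, 4 met the rule for lower (33.3%, against 19.6% of all genes) and 0 for higher, with a median of -0.34. The lower genes were HIF1A (-1.24), PHLPP2 (-1.27), RBL2 (-0.88) and BCL2L11 (-0.85), and the list had a long median transcript of 4827.5 nucleotides. After the fit on length and GC the median was -0.21, with 2 lower and 1 higher, and after the loess on length 4 were lower and 2 higher. A list of 12 assessed hosts of small RNAs, MIR17HG among them, gave 0 lower genes and 1 higher. These are 0% lower and 8.33% higher, against 19.6% and 19.2% of all genes, and 8 of the 12 intervals included equality. The higher gene was the miR-15 and miR-16 host DLEU2 at 0.79 [0.36, 1.23]. With length and GC fitted, 2 were higher and 1 lower, when 14.9% of all genes were higher and 12.2% lower.

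Protein-coding genes that carry snoRNAs had ratios above 1 in 41 of 54 cases, against 7188 of all 13850 assessed genes. By the 1.5-fold rule 18 were higher (33.3%, against 19.2% of all genes) and 4 lower (7.41%, against 19.6%), with a median of 0.48, among them the ribosomal protein genes RPL7A (0.84), RPL32 (0.83) and RPL23A (0.81), and UBAP2 at -1.31. With length and GC fitted, its median was 0.10, and 8 were higher and 1 lower, when 14.9% of all genes were higher and 12.2% lower. After the loess on length 6 were higher, and after a loess on mean expression 5. The proteins that assemble snoRNAs into particles gave 6 higher (28.6%) and 3 lower (14.3%) of 21, with a median of 0.35. Once length and GC were fitted, 1 was higher, and after the loess on length 0, with medians of 0.15 and 0.07. Fibrillarin (FBL, 0.84), the methyltransferase of box C/D particles, NOP10 (0.92), a subunit of box H/ACA particles, and the assembly ATPase RUVBL2 (0.74) were higher before correction, whereas the nucleolar chaperone NOLC1 was lower at -1.38 [-1.47, -1.29].

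Nonsense-mediated decay, which removes GAS5, ZFAS1 and other spliced hosts, was examined through its factors and through targets that carry no snoRNA. Of 22 decay factors, 3 were higher (13.6%) and 7 lower (31.8%, against 19.6% of all genes), with a median of -0.05 and a median transcript of 4760 nucleotides. With length and GC fitted, 2 were lower, and after the loess on length 1. The kinase SMG1 was at -1.81 [-1.90, -1.72] and the exonuclease XRN1 at -1.14, while the decapping genes PNRC2 (1.43) and DCP2 (1.28) were higher. SMG1 has near copies in the genome, so its counts are uncertain. Of 16 decay targets without a snoRNA, 1 was higher (DDIT3, 0.85) and none lower, with a median of -0.13. These are 6.25% higher and 0% lower, against 19.2% and 19.6% of all genes. Once length and GC were fitted, 0 were higher and 1 lower and the median was -0.05, beside 0.02 for the members. After the loess on length 2 were lower. Over all assessed genes 14.9% were higher and 12.2% lower after the fit, and 14.6% and 13.4% after the loess.

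Of 15 genes that control the translation of TOP messages and growth arrest, 4 were lower (26.7%, against 19.6% of all genes) and 0 higher by the 1.5-fold rule. Their median was -0.10, with a median transcript of 6344 nucleotides. With length and GC fitted, 3 were lower and 1 higher and the median was 0.10, and after the loess on length 3 were lower and 2 higher. LARP1, which binds the TOP tract and stabilises such RNAs, had 6572 and 2493 counts and was at -1.32 [-1.39, -1.25]. EIF4EBP2, a repressor of cap-dependent translation, had 2038 and 408 counts and was at -2.24 [-2.40, -2.09]. LARP4 (-0.65) and the glucocorticoid receptor NR3C1 (-0.75) were the others, and MTOR itself was at -0.10 [-0.19, 0.00]. Of 13 genes listed as partners of TUG1, DANCR, GAS5 and CYTOR or as their neighbours, 1 was higher (EPCAM). It had only 37 and 65 counts and was at 0.89 [0.29, 1.52]. Lower were 4 (EGFR at -1.86, ZBTB37, NR3C1 and CTNNB1 at -0.61). These are 7.69% higher and 30.8% lower, against 19.2% and 19.6% of all genes, with a list median of -0.29. Once length and GC were fitted, 2 were higher and 1 lower with a median of 0.07, and after the loess on length 1 was higher and 1 lower. The subunits of Polycomb repressive complex 2, a reported partner of TUG1, were at 0.06 for EZH2, 0.19 for EED and -0.49 for SUZ12.

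The other 6 members stayed under 30 counts in both libraries and were given no ratio. SNHG9 had 7 and 26 counts, SNHG22 had 10 and 7, SNHG25 had 9 and 2 and SNHG28 had 2 and 7. SNHG18 and SNHG27 had 0 counts in both libraries.

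Hosts that RefSeq now numbers as SNHG but the table lists under older symbols were not members. LRRC75A-AS1, now SNHG29 (chromosome 17, 16438987 to 16470648), had more counts than any member, 6813 and 9635, and a log2 ratio of 0.58 [0.53, 0.62]. LINC02001, now SNHG30, had 106 and 220 counts and was at 1.13 [0.79, 1.48]. LINC00888, now SNHG33, was at -0.49 [-0.86, -0.12], and C6orf48, now SNHG32, at 0.10 [-0.34, 0.53] with 91 and 92 counts.

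The libraries held 18647290 counts (shNC) and 18862371 counts (shDEPDC1B) after rounding. DEPDC1B, the targeted gene, had 329 and 39 counts, a log2 ratio of -3.00 [-3.51, -2.52]. The epithelial keratins KRT7, KRT8 and KRT18 were abundant (KRT8, 106007 and 103507 counts). The keratin KRT19 had 429 and 475 counts and the epithelial marker EPCAM 37 and 65. The lung lineage markers SFTPB, SFTPC, NAPSA and NKX2-1 had at most 10 counts. Of 6 leukocyte markers, CD14 (107 and 175) and CD68 (690 and 495) were assessed, PTPRC had 0 and 2 counts, and CD3E had 0. The 6 leukocyte markers summed to 41.8 and 37.3 CPM, the 6 fibroblast markers to 10.0 and 12.1 CPM and the 5 endothelial markers to 0.726 and 0.603 CPM. DCN, a fibroblast marker, had 0 counts, and the 6 markers of HEK293 and neuroendocrine cells summed to 101 and 69.5 CPM. Their part in the results above was not tested.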

How the data were processed

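The table as deposited by the authors holds estimated counts for gene symbols in 1 library per group, made with tools and a build that the submitters' processing notes name as Bowtie2, RSEM and hg38, whereas versions, gene annotation, RNA selection and strand were not stated in the labels or files. RSEM divides reads that match several transcripts by a model, so near copies and overlapping genes carry an error outside the intervals given. Estimates were rounded to whole numbers. Groups came from the treatment label.

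Libraries were scaled with TMM factors (1.03 for shNC, 0.967 for shDEPDC1B; edgeR 4.0.16, R 4.3.3). No test across genes was run. Ratios carry exact Clopper-Pearson 95% intervals, computed on the fraction of a gene's counts that came from shDEPDC1B. With 1 library per group these cover counting error only. No use of molecular identifiers is stated, so duplicate reads could make even the counting error larger than shown. A gene was assessed at 30 counts in either library and called at 1.5-fold when its interval left out equality. These functions were tested on simulated data.

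Bounds, transcript length and GC content are from GENCODE 29, for 94.0% of assessed genes and all 30 members, and start sites were in the RefSeq table for 26 members. snoRNA rows were placed by GENCODE strand and bounds, or by RefSeq bounds without strand where GENCODE 29 lacks the symbol. Every assessed member is named, with up to 4 genes per list (the interval bound farthest from equality among those 1.5-fold away) and genes starting within 2000 bases on the opposite strand. Overlapping genes, rows around SNHG14, older symbols, single snoRNA rows, MIR4435-2HG, MTOR, EZH2, EED, SUZ12 and the markers were named after their values were seen. The members and lists were chosen with earlier results of these data known. Alternatives used DESeq2 1.42.0 size factors, library totals, upper-quartile factors, unrounded estimates, a prior count of 2, fits on length and GC, loess fits (span 0.3) on length or expression, and other count minimums and folds.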

Additional observations from a re-analysis of the deposited data

How the results depend on the processing

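The members' median log2 ratio of 0.40 fell to 0.02 after the fit on length and GC and to 0.01 after the loess on length, where all genes stood at 0.08 and 0.05, and the SNHG members alone at -0.01 and 0.06. It was 0.30 with libraries scaled by their totals and 0.43 after a loess on mean expression. At 2-fold in place of 1.5-fold, 1 member (DANCR) was higher, against 4, and 2 were lower, against 3. At 2-fold 5.86% of all assessed genes were higher and 8.97% lower. Among the 13 assessed members that overlap no other assessed gene, an alternative added after the data were seen, 1 member (TUG1) was lower. SNHG19, called higher, changed sign after the fit on length and GC, from 0.73 to -0.29, as did the uncalled members SNHG6, SNHG7, SNHG8, ZFAS1 and MIR17HG (0.02). After the loess on length SNHG6, SNHG8, SNHG21, GAS5 and ZFAS1 did. Library totals and DESeq2 size factors each gave 4 higher and 4 lower members, SNHG12 being the addition. The counts of higher and lower members were otherwise within 1.5 times the main counts, though both length corrections replaced SNHG10, SNHG19, SNHG14 and TUG1 by CYTOR, SNHG12 and SNHG26. With the 4 older symbols added, after the data were seen, the median was 0.40 and 5 genes were higher. The tract share of 50.0% was 79.2% when any GENCODE 29 transcript start counted, against 49.6% of assessed genes. It was 22.7% when the tract had to open exactly at the start, against 47.7% of protein-coding hosts and 4.07% of all starts. SNHG26, SNHG11 and MIR17HG, with fewer than 100 counts, and SNHG15 had intervals that include equality. No paired analysis was possible because each group holds 1 library, and no library could be left out.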
